A study of Mus musculus with 6 samples.

Results

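The mitochondrial ribosomal protein genes, whose symbols begin with Mrpl or Mrps, were taken as every protein-coding row of the deposited count table with such a name followed by a digit. They came to 75 of the table's 41921 rows, 20461 of which were protein-coding. Of the 75, 47 were named Mrpl, for the large subunit, and 28 were named Mrps, for the small subunit, and together they lay on 17 chromosomes. Expression had been measured by RNA sequencing of total RNA in 6 libraries made from RAW264.7 cells, a WT macrophage line of the mouse that the cytokine RANKL can drive towards bone-resorbing osteoclasts. The labels put 3 libraries under albiflorin, a glycoside found in peony roots, and 3 under RANKL. The protocol text of all 6 names RANKL, at 50 ng/mL and given to cells 3 days past confluence. It does not say separately whether the cells labelled albiflorin received both agents, and how much albiflorin was used, and for how long, is not given in the sources read. Every library came from the same cell line and no untreated library was analysed here. The labels do not state whether the 3 replicates of a group were separate cultures. The p-values therefore reflect the variation among these 6 libraries alone, and that variation may be technical.

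The mitochondrial ribosome translates the proteins encoded in mitochondrial DNA, all of them core subunits of the respiratory chain or of ATP synthase. Its RNA comes from the mitochondrial genome, whereas its proteins are encoded in the nucleus, made in the cytosol and imported. Some of these proteins have counterparts in bacterial ribosomes and others are specific to mitochondria, added around a core of shortened ribosomal RNA. Osteoclasts are rich in mitochondria, and their differentiation is known to go with mitochondrial biogenesis.

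The albiflorin libraries held 13708041 to 15200418 counts and the RANKL libraries 13673284 to 15489482. All 8 macrophage markers had counts and summed to 9772 to 10307 CPM (normalised read counts, scaled to a common library size) in the albiflorin libraries, against 8606 to 9063 CPM in the RANKL libraries. Of 9 osteoclast markers, 8 had counts and summed to 63.1 to 72.0 CPM with albiflorin and 57.05 to 62.3 CPM with RANKL, and Calcr was at 0 in all 6 libraries. Summed markers of fibroblasts, epithelial cells, T cells and B cells stayed at or under 0.66 CPM in each library. The part of the macrophage markers in the results was not tested, and in bulk RNA more cells of a type and more RNA per cell cannot be told apart.

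The mitochondrial ribosomal protein genes were higher in sum in the albiflorin libraries, and most of them differed by a small amount. Of the 75 genes, 74 passed the filter on low counts, and 46 of these (62.2%) rose with albiflorin at an adjusted p under 0.05 in edgeR's quasi-likelihood test with Benjamini-Hochberg adjustment over 13158 genes. None fell and 28 did not pass. Over all tested genes, 12.4% were called higher and 11.4% lower. At an unadjusted p under 0.05, 57 of the 74 differed, all of them higher with albiflorin, while over all tested genes 18.5% were higher and 17.2% lower at that threshold. DESeq2 and limma-voom also called 0 of them lower.

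The summed level of the 75 genes was 3729, 3866 and 3396 CPM in the albiflorin libraries, against 3128, 2846 and 3023 CPM in the RANKL libraries. Means were 3663 ± 242 CPM with albiflorin and 2999 ± 142 CPM with RANKL (SD, n = 3 each), and the groups did not overlap. As a share of all counts, the genes took 0.372%, 0.379% and 0.338% in the albiflorin libraries and 0.312%, 0.288% and 0.305% in the RANKL libraries. Among the albiflorin libraries, replicate 3 was the lowest for 64 of the 74 tested genes, and among the RANKL libraries replicate 2 was the lowest for 56. Other short transcripts followed the same order of libraries. Relative to the RANKL mean, the median log2 level of the members was 0.34, 0.38 and 0.17 in the albiflorin libraries and 0.068, -0.080 and 0.022 in the RANKL libraries. For other protein-coding genes with mRNAs under 1000 nt it was 0.38, 0.51 and 0.26 in the albiflorin libraries and 0.054, -0.073 and 0.024 in the RANKL libraries.

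Log2 fold changes, albiflorin over RANKL, ran from -0.086 for Mrps34 to 0.77 for Mrpl54, with a median of 0.30, which is a 1.23-fold difference. The median over all tested genes was 0.0056. The log2 fold change was above 0 for 71 of the 74 genes and below 0 for 3, and it reached 0.5 for 8. In 52 of the 74 every albiflorin library lay above every RANKL library, and in none did every albiflorin library lie below. Over all tested genes these shares were 20.8% and 19.3%. Of the 46 genes called higher, 44 had groups that did not overlap.

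**Figure D1:**
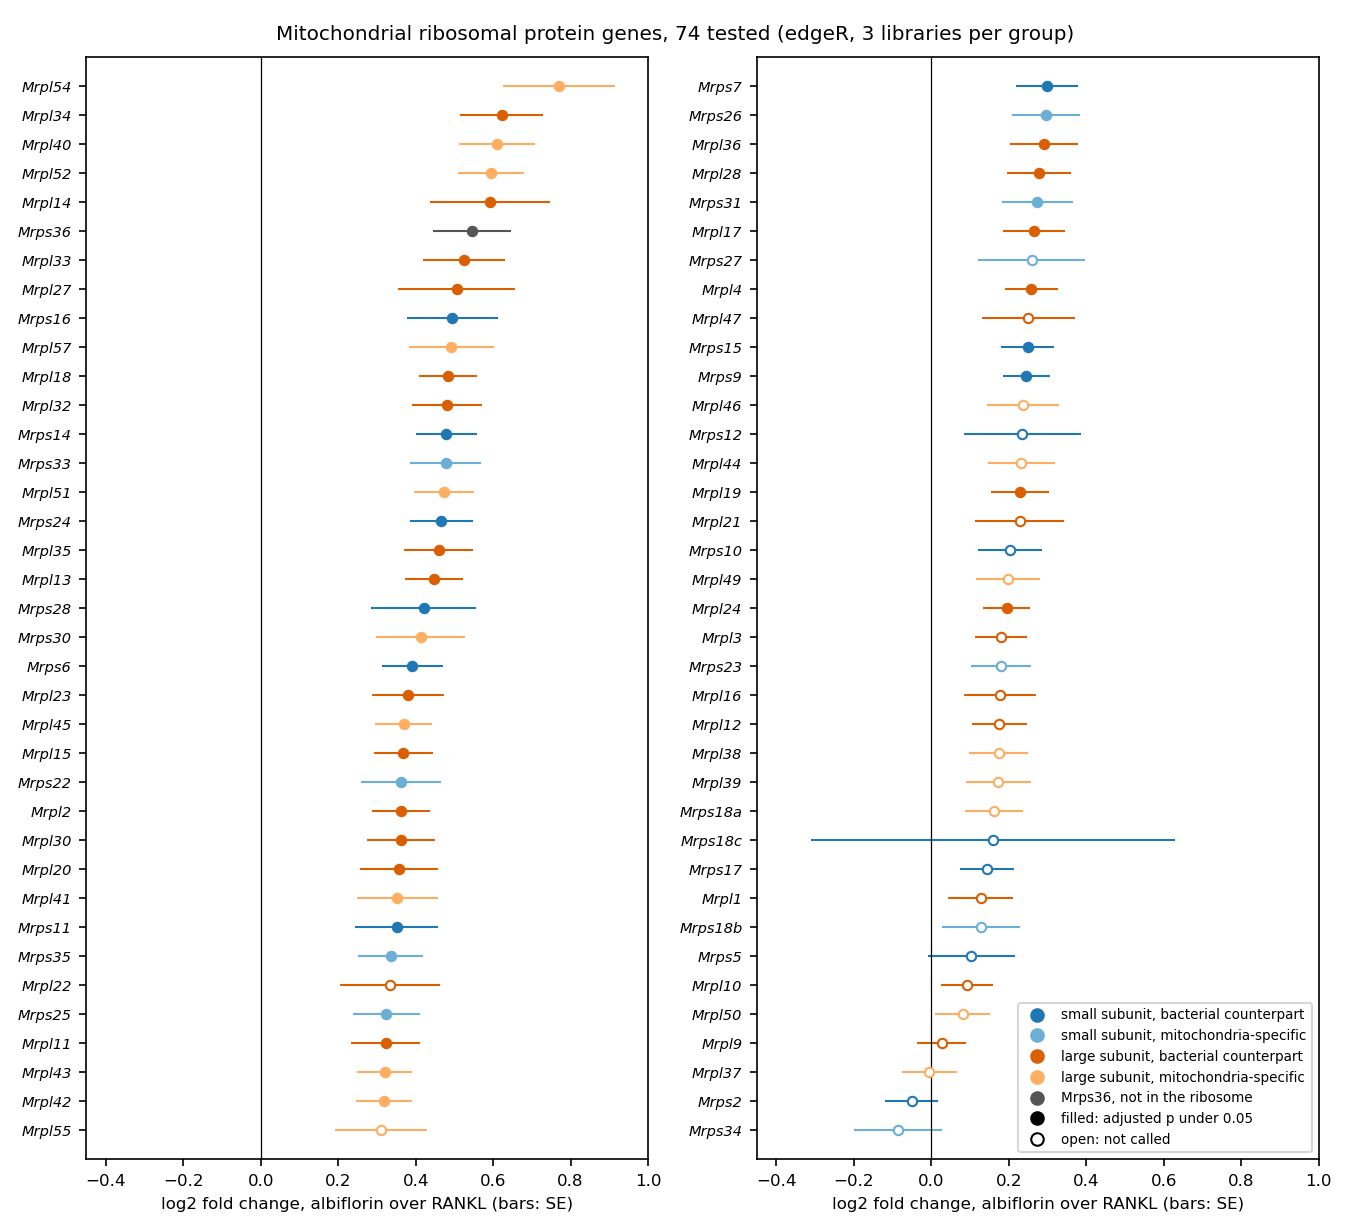
Log2 fold change, albiflorin over RANKL (horizontal axis), of the 74 tested mitochondrial ribosomal protein genes in order of size, with bars for the SE of the edgeR fit. Colours give the place in the ribosome, and filled points are the 46 genes called higher; only Mrpl37, Mrps2 and Mrps34 lie below 0, and none of these was called.

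Short transcripts in general were higher in the albiflorin libraries, and most of these genes are short. Across 10901 tested protein-coding genes, Spearman's rho between the log2 fold change and the mRNA length of the principal transcript was -0.62, and with the coding length it was -0.54. Among the 74 genes alone rho was -0.28 with mRNA length and -0.51 with coding length. These points share the same 6 libraries and are given as descriptions. The median mRNA length was 1302 nt for the tested members and 2981 nt for other tested protein-coding genes, and the median coding length was 582 nt against 1383 nt.

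Within classes of equal length, the share called higher was larger for the mitochondrial ribosomal genes than for other protein-coding genes in each class. For coding lengths under 400 nt, 10 of 12 members were called higher (83.3%), against 49.6% of 542 other genes. From 400 to under 600 nt the count was 20 of 26 (76.9%), against 37.2% of 829 others. Genes of 600 to under 900 nt gave 9 of 21 (42.9%), against 24.4% of 1521 others. At 900 nt or more it was 7 of 15 (46.7%), against 5.9% of 7935 others, although the members in that class stop at 1326 nt and the others have a median of 1734 nt. Median log2 fold changes in the 4 classes, from short to long, were 0.48, 0.36, 0.23 and 0.25 for members and 0.33, 0.22, 0.13 and -0.044 for the others. These differences in share were not tested.

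By mRNA length, the gap to other genes was widest in the longest class. In the class under 1000 nt, 17 of 23 members (73.9%) were called higher, against 59.5% of 598 other genes, with medians of 0.36 and 0.38. Members of 1000 to under 1500 nt gave 12 of 22 (54.5%), against 37.3% of 1019 others, and those of 1500 to under 2500 nt gave 3 of 10 (30%), against 17.6% of 2557 others. With mRNAs of 2500 nt or more, 14 of 19 members (73.7%) were called higher, against 3.4% of 6653 others, with medians of 0.32 and -0.083. The coding lengths of those 19 ran from 306 to 1326 nt with a median of 576 nt, while the median of the other long-mRNA genes was 1902 nt, so most of each such mRNA is untranslated. The annotated principal transcript can be longer than the one these cells use, which the deposited counts per gene do not show. For some of the 19 it was far longer than the listed gene length. Examples are Mrpl32 (3013 against 768 nt), Mrps16 (2572 against 566 nt) and Mrps25 (6073 against 1929 nt). For others, such as Mrps14 (2999 against 3258 nt), it was not. The gap in this class therefore depends on which length is assigned.

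**Figure D2:**
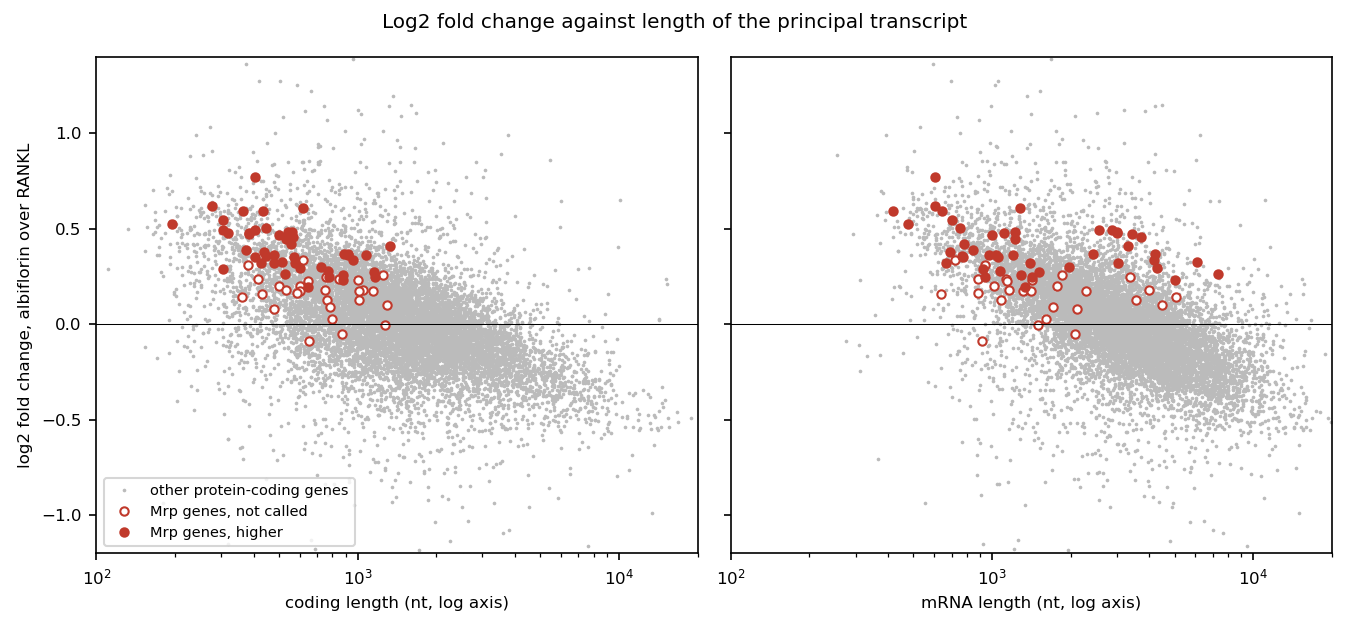
Log2 fold change, albiflorin over RANKL (vertical axis), against coding length (left) and mRNA length (right), both in nt on log axes, with red points for the 74 mitochondrial ribosomal genes and grey points for other tested protein-coding genes. The grey cloud slopes down with length, and members with mRNAs under 1000 nt sit within it (medians 0.36 and 0.38), while those of 2500 nt or more sit above its centre (medians 0.32 and -0.083).

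Taking a smooth length trend out of each library before the fit reduced the calls. With the coding-length trend removed, 15 of the 74 genes were called higher and 0 lower (all tested genes 5.75% higher and 8.3% lower), with a median of 0.13. With the trend on the gene length listed in the table removed, 25 were called higher and 0 lower (all genes 7.18% and 7.96%), with a median of 0.15. With the mRNA-length trend removed, 20 were called higher and 1 lower (all genes 4.8% and 5.43%), with a median of 0.054, and the single gene lower was Mrps34 at -0.42 with an edgeR adjusted p of 0.0168. Of these 20 genes called higher, 16 were among the 19 members with mRNAs of 2500 nt or more. The 23 members under 1000 nt gave 0 higher and 1 lower, with a median of -0.027. After removal of the mRNA-length trend the values of the 74 genes ran upwards with mRNA length, with a rho of 0.58. That correction thus left a trend of the other sign in this group, whereas rho with coding length after removal of the coding-length trend was 0.027.

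The promoters of several of these genes hold motifs of factors known to act on nuclear genes for mitochondrial proteins, and examples are shown as context for the family. RefSeq promoter windows (GRCm38.p6) of 300 bases, from 250 before to 50 after the start, were found for 66 of the 75 genes. The ETS motif CCGGAAGT, bound by GABP, occurred on either strand in 11 of the 66 (16.7%), against 10.0% of 8495 tested protein-coding genes. The NRF1 motif, GCGCA and GCGC with any 1 base between them, occurred in 12 (18.2%), against 12.5%. The YY1 motif AAGATGGCG occurred in 8 (12.1%), against 4.0%. The E-box CACGTG, bound by Myc and Max, occurred in 5 (7.6%), against 11.97%, so it was less frequent here than over all genes, and none of these differences was tested. At least 1 of the 4 motifs was in 31 of the 66 (47.0%), against 33.0% of the 8495. In the windows of genes called higher, the ETS motif was in 8 of 39, NRF1 in 8, YY1 in 5 and the E-box in 3. In windows of the genes not called, it was ETS in 3 of 27, NRF1 in 4, YY1 in 3 and the E-box in 2. A match is a description of letters in this window and not evidence of binding.

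Stretches of 5 promoters with an ETS or NRF1 motif follow, 5′ to 3′ on the strand of the gene, with the motif in capitals. They are Mrpl18 (chr17:12916312-12916341, minus strand), Mrpl51 (chr6:125192100-125192129, plus strand) and Mrpl43 (chr19:45006443-45006489, minus strand) with ETS motifs, and Mrpl32 (chr13:14613105-14613134, minus strand) and Mrpl45 (chr11:97315561-97315715, plus strand) with NRF1 motifs, all on GRCm38.p6. All 5 were picked from the genes called higher, in order of p, so their calls were set by that choice. Longer stretches of Mrpl18, Mrpl51 and Mrpl32 overlapped an annotated exon, and these were cut to 30 bases.
Mrpl18: actgaaaacgCCGGAAGTagggggctgcgg
Mrpl51: aggggctaaaCCGGAAGTatttgactggac
Mrpl43: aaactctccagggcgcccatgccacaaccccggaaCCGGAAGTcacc
Mrpl32: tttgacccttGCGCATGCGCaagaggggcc
Mrpl45: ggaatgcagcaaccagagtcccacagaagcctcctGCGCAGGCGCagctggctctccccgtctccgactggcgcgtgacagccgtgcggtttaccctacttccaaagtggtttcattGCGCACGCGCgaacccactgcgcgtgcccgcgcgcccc

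Examples with the YY1 motif, also picked from the genes called higher in order of p, were all kept to 30 bases or fewer. They are Mrps24 (chr11:5707652-5707675, minus strand), Mrpl35 (chr6:71823742-71823771, minus strand) and Mrpl42 (chr10:95501903-95501932, minus strand), on the same build, with the motif in capitals.
Mrps24: gcgccggcccAAGATGGCGtggtc
Mrpl35: ggcaggctgcAAGATGGCGgcttccatctt
Mrpl42: agattgaagcAAGATGGCGagcgcgcggtg

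Large-subunit genes came to 49 with Mrps18a and Mrps30, whose proteins sit in the large subunit despite their names, and 48 of them were tested. Of the 48, 30 rose and none fell, with a median log2 fold change of 0.32. Those with bacterial counterparts gave 20 of 29 called higher with a median of 0.32, and the mitochondria-specific ones gave 10 of 19 with the same median to 2 decimals. The difference between these groups was not tested.

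Mrpl52, a mitochondria-specific protein (MGP_C57BL6NJ_G0021710, chromosome 14, 50830407 to 50834470), had the smallest p of all members. It stood at 53.7, 60.4 and 47.9 CPM in the albiflorin libraries, against 36.2, 34.8 and 36.3 CPM in the RANKL libraries. The groups were far apart, and the log2 fold change was 0.59 ± 0.086 (SE) with an edgeR adjusted p of 0.000388. Mrpl18, a bacterial-type protein that binds 5S ribosomal RNA in bacteria (MGP_C57BL6NJ_G0023564, chromosome 17, 10983211 to 10987988), had 57.6, 61.4 and 53.3 CPM with albiflorin and 41.6, 40.3 and 41.3 CPM with RANKL. Its groups did not overlap either, at 0.48 ± 0.074 and an edgeR adjusted p of 0.000535. The gene overlaps Tcp1 on the opposite strand, a chaperonin gene with 37336 counts over the 6 libraries against 4268 for Mrpl18, and the strand setting of the read counting is not stated in the labels.

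Mrpl40, a mitochondria-specific protein of the central protuberance (MGP_C57BL6NJ_G0023037, chromosome 16, 16455740 to 16460195), was at 39.0, 37.9 and 37.2 CPM with albiflorin, against 29.1, 22.6 and 23.3 CPM with RANKL. Its lowest albiflorin library was above its highest RANKL library, RANKL replicate 1, and the log2 fold change was 0.61 ± 0.098 with an edgeR adjusted p of 0.000678. Mrpl51, another mitochondria-specific protein (MGP_C57BL6NJ_G0031724, chromosome 6, 131907910 to 131912378), had 59.9, 61.2 and 55.2 CPM in albiflorin libraries and 44.8, 38.8 and 43.4 CPM in RANKL libraries. That is a log2 fold change of 0.47 ± 0.077, with an edgeR adjusted p of 0.000716 and no overlap. The ETS motif in its promoter stands in the stretch printed above.

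Mrpl13, a protein with a bacterial counterpart (MGP_C57BL6NJ_G0022262, chromosome 15, 56745479 to 56768684), was measured at 83.7, 88.4 and 74.1 CPM with albiflorin, against 64.0, 56.8 and 59.9 CPM with RANKL. The log2 fold change was 0.45 ± 0.076 with an edgeR adjusted p of 0.000888, and the groups were apart. Mrpl34, the shortest of the 8 genes with the smallest p by coding length and one with a bacterial counterpart (MGP_C57BL6NJ_G0034243, chromosome 8, 74603807 to 74604633), had 26.4, 26.8 and 24.3 CPM with albiflorin and 18.5, 14.3 and 17.7 CPM with RANKL. Here the log2 fold change was 0.62 ± 0.11 with an edgeR adjusted p of 0.00103.

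The largest fold change of all was that of Mrpl54, a mitochondria-specific large-subunit gene named here after its values were seen. It had 15.8, 17.4 and 12.02 CPM with albiflorin, against 9.69, 8.28 and 8.57 CPM with RANKL. That made a 1.71-fold difference, a log2 fold change of 0.77 ± 0.14 with an edgeR adjusted p of 0.00167. Albiflorin replicate 3 was the lowest of its group and was still above all RANKL libraries. With the mRNA-length trend removed the value was 0.30 and the call was lost (edgeR adjusted p = 0.122), and it was kept with the gene-length and coding-length trends removed (0.41 and 0.50).

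Small-subunit genes came to 25, all tested, of which 15 rose and none fell, with a median of 0.27. The bacterial-type ones gave 9 of 15 with a median of 0.25, and the mitochondria-specific ones 6 of 10 with a median of 0.28. Mrps14, the counterpart of bacterial S14 (MGP_C57BL6NJ_G0017044, chromosome 1, 170999716 to 171006671), was at 65.9, 72.6 and 59.9 CPM with albiflorin, against 48.1, 45.4 and 48.8 CPM with RANKL. No library crossed between the groups, and the log2 fold change was 0.48 ± 0.078 with an edgeR adjusted p of 0.00071. Mrps24, the counterpart of bacterial S3 (MGP_C57BL6NJ_G0018397, chromosome 11, 2848762 to 2860400), had 43.3, 43.5 and 39.9 CPM with albiflorin and 32.7, 29.7 and 29.3 CPM with RANKL. It rose by 0.47 ± 0.082 on the log2 scale, with an edgeR adjusted p of 0.0011.

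Of the 8 genes with the smallest p, Mrpl13, Mrpl18, Mrpl40 and Mrps14 passed with each of the 3 length trends removed. Mrpl52 did not pass with the mRNA-length trend removed (0.022, edgeR adjusted p = 0.877), and neither did Mrps24 (0.15, edgeR adjusted p = 0.231). Mrpl51 did not pass with the coding-length trend removed (0.20, edgeR adjusted p = 0.0578). Mrpl34 passed with none of the 3 removed, at 0.16 to 0.27 and edgeR adjusted p values of 0.0713 to 0.302. All 8 passed when any 1 library was left out. They were chosen by p in these same libraries, so the gaps between their groups are no further evidence.

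**Figure D3:**
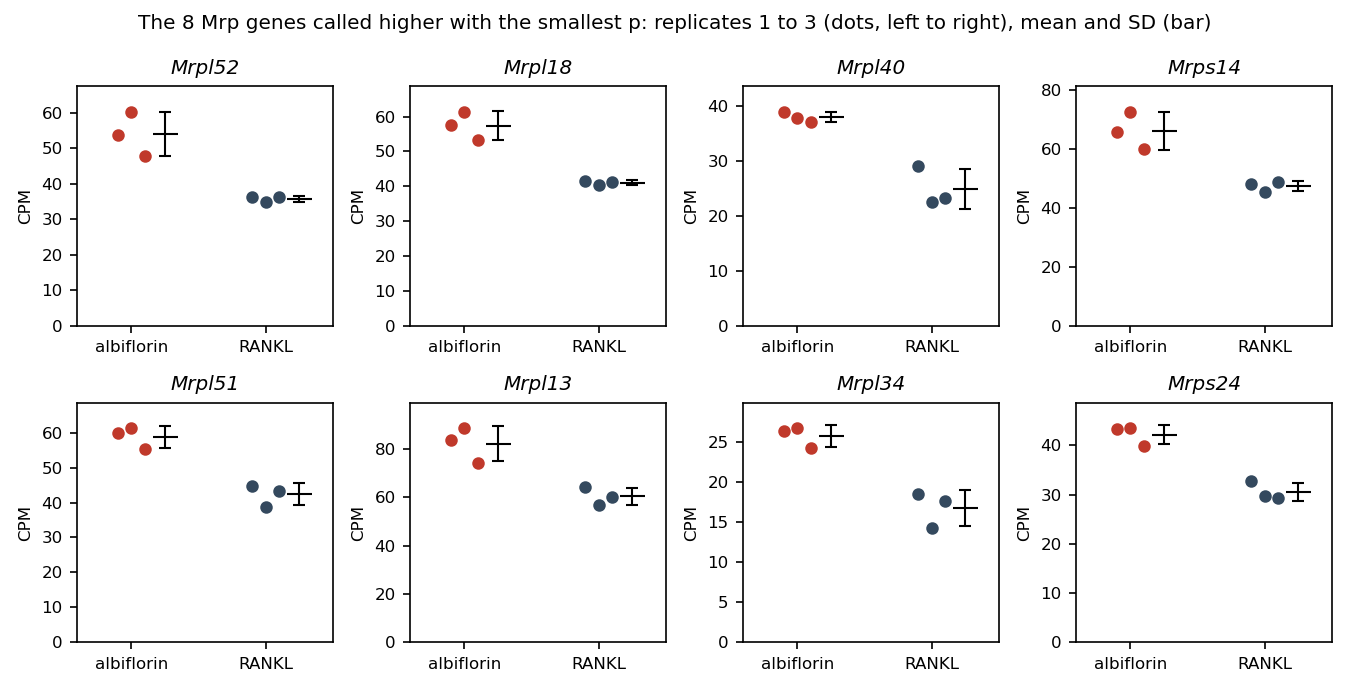
Normalised CPM (vertical axes, each from 0) of the 8 genes with the smallest p in the 3 albiflorin libraries (red, left in each panel) and the 3 RANKL libraries (dark blue, right), with the mean and SD beside the dots. In all 8 panels the lowest albiflorin library is above the highest RANKL library, which follows largely from choosing the genes by p in these same libraries.

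Levels between genes were compared as FPKM, the authors' values per listed gene length and depth. The listed length can differ from the mRNA length, so the order of genes depends on it. Mrpl33 was listed at 7326 nt with an mRNA of 478 nt, and Mrps35 at 8649 nt with an mRNA of 4162 nt. Their mean FPKM was low, at 5.00 and 4.17, with means of 30.2 and 32.1 CPM in the RANKL libraries. The tested members had a mean FPKM over the 6 libraries of 0.702 to 102.5, with a median of 19.1, and 60 of 74 were above 10. The 4 highest, Mrpl42, Mrpl4, Mrpl43 and Mrps6, made up 16.2% of the summed FPKM of the family. All 4 rose, by less than the genes with the smallest p.

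Mrpl42, a mitochondria-specific large-subunit protein, led the family at 110.7, 123.6 and 106.7 FPKM in the albiflorin libraries, against 90.9, 87.0 and 96.1 FPKM in the RANKL libraries. The groups did not overlap, and the log2 fold change of its counts was 0.32 ± 0.073 with an edgeR adjusted p of 0.0054. It had 3 pseudogene rows, which held 2.96% of the counts of gene and pseudogenes together. Mrpl4, the counterpart of a protein that lines the bacterial exit tunnel, had 69.0, 73.5 and 65.4 FPKM with albiflorin and 57.8, 55.5 and 61.0 FPKM with RANKL. Its log2 fold change was 0.26 ± 0.068 with an edgeR adjusted p of 0.0121, but it was called in only 3 of the 6 fits with 1 library left out, missing without albiflorin replicate 1, albiflorin replicate 2 or RANKL replicate 2 (adjusted p = 0.0533, 0.0559 and 0.0523).

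Mrpl43, also specific to mitochondria, was at 67.7, 70.1 and 63.3 FPKM with albiflorin, against 55.7, 49.6 and 56.2 FPKM with RANKL. The log2 fold change was 0.32 ± 0.071 with an edgeR adjusted p of 0.00439. Mrps6, a bacterial-type small-subunit protein, was at 66.2, 74.4 and 62.0 FPKM with albiflorin, against 48.0, 52.8 and 54.0 FPKM with RANKL. Its log2 fold change was 0.39 ± 0.078 with an edgeR adjusted p of 0.00245. Mrps6 overlaps Slc5a3, a myo-inositol transporter gene on the same strand with 27824 counts over the 6 libraries against 5476 for Mrps6, and how reads shared by the pair were counted is not stated. None of these 4 genes was called with any of the 3 length trends removed, where values ran from -0.12 to 0.15, and Mrpl42 was below 0 with the gene-length and the mRNA-length trend removed and Mrpl4 with the gene-length trend removed.

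At the low end, Mrpl53, a mitochondria-specific gene, was at 0 counts in each of the 6 libraries. Taking 3 counts as the limit, a level of up to 0.194 to 0.219 CPM, depending on the library, would be compatible with that. These limits cover counting error only. It overlaps Gm42688 on the same strand, with 169 counts, and Ccdc142os on the other strand, with 126, and reads that fall on more than 1 gene may have gone uncounted, and whether that happened here was not tested. Mrps5, the counterpart of bacterial S5, was at 2.28, 2.64 and 2.35 FPKM with albiflorin, against 2.32, 2.05 and 2.42 FPKM with RANKL. The libraries overlapped, and the log2 fold change of 0.10 ± 0.11 did not pass (edgeR adjusted p = 0.546). Mrps35, a mitochondria-specific small-subunit protein, had 4.59, 4.83 and 4.52 FPKM with albiflorin and 4.04, 3.37 and 3.69 FPKM with RANKL. It rose by 0.34 ± 0.085 on the log2 scale with an edgeR adjusted p of 0.00988, passed with each of the 3 length trends removed, and missed without RANKL replicate 2 (adjusted p = 0.052).

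Mrps18a, Mrps18b and Mrps18c are related to bacterial S18, and their proteins take different places, Mrps18a in the large subunit and the other two in the small subunit. In the split by bacterial counterpart given above, Mrps18a and Mrps18b were counted as mitochondria-specific and Mrps18c as bacterial-type. None of the 3 was called. Mrps18a had 42.8, 45.5 and 42.96 CPM with albiflorin, against 39.7, 37.4 and 40.1 CPM with RANKL. These groups did not overlap, but the log2 fold change of 0.16 ± 0.074 had an edgeR adjusted p of 0.128. Mrps18b had 18.6, 16.9 and 18.1 CPM with albiflorin and 16.8, 15.5 and 16.8 CPM with RANKL, likewise without overlap, at 0.13 ± 0.10 and an edgeR adjusted p of 0.393. For Mrps18c, with 75 counts in all, the values were 0.725, 0.446 and 1.55 CPM with albiflorin and 0.734, 1.15 and 0.54 CPM with RANKL. The libraries of Mrps18c were interleaved, and its log2 fold change of 0.16 ± 0.47 was not distinguishable from 0 at this depth (edgeR adjusted p = 0.845).

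Mrps36 carries a ribosomal name, but its protein is an adaptor of the 2-oxoglutarate dehydrogenase complex of the citric acid cycle. It was at 37.6, 36.5 and 29.4 CPM with albiflorin, against 25.1, 22.5 and 23.3 CPM with RANKL. It rose by 0.55 ± 0.10 on the log2 scale with an edgeR adjusted p of 0.00158. Its 11 pseudogene rows held 10.9% of the counts of gene and pseudogenes together, the highest share in the family. With the mRNA-length or the coding-length trend removed it was not called (0.12 and 0.21, edgeR adjusted p = 0.385 and 0.11).

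Among parts of the large subunit, the stalk that recruits translation factors held 1 called gene of 3. Of Mrpl10, Mrpl11 and Mrpl12 only Mrpl11 rose, with 33.0 ± 2.98 CPM with albiflorin and 26.4 ± 0.425 CPM with RANKL (SD, n = 3 each) and an edgeR adjusted p of 0.0155. Mrpl10, the base of the stalk, had a log2 fold change of 0.092 ± 0.068, and Mrpl12, which forms its flexible arms, had 0.18 ± 0.071. The call of Mrpl11 was lost without albiflorin replicate 1, albiflorin replicate 2 or RANKL replicate 2 (edgeR adjusted p = 0.0709, 0.0693 and 0.0537), and with the gene-length or coding-length trend removed (edgeR adjusted p = 0.0554 and 0.279). All 3 had groups without overlap and with albiflorin above, as had 20.8% of all tested genes. Whether the stalk differs from the rest was not tested. Around the exit tunnel, where new chains leave towards the inner membrane, 4 of 6 listed genes rose, with a median of 0.30 over the 6. The list held Mrpl17, Mrpl22, Mrpl23, Mrpl24, Mrpl45 and Mrpl47. Mrpl4 was not in it and also rose (0.26). Among the 4 was Mrpl45, which tethers the ribosome to the inner membrane. Mrpl45 was at 93.7, 96.9 and 80.4 CPM with albiflorin, against 68.3, 71.9 and 69.6 CPM with RANKL, a log2 fold change of 0.37 ± 0.073 with an edgeR adjusted p of 0.00234. In the central protuberance, 3 of 5 rose (Mrpl18, Mrpl27 and Mrpl40) with a median of 0.48, while Mrpl38 and Mrpl46 gave 0.17 and 0.24 without passing. Mrpl27 was called with none of the 3 length trends removed and in 3 of the 6 fits with 1 library left out, missing without albiflorin replicate 1, RANKL replicate 2 or RANKL replicate 3.

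The 3 genes with a negative log2 fold change stayed close to 0. Mrps34, a mitochondria-specific small-subunit protein, had 17.0, 16.6 and 15.9 CPM with albiflorin, against 19.7, 15.0 and 18.0 CPM with RANKL, and its libraries overlapped. Mrps2, with a bacterial counterpart, had 62.9, 63.6 and 64.6 CPM with albiflorin and 69.5, 61.2 and 67.3 CPM with RANKL. Mrpl37 had 59.0, 54.6 and 53.9 CPM with albiflorin and 58.2, 53.0 and 57.1 CPM with RANKL. The log2 fold changes were -0.086, -0.051 and -0.005 with edgeR adjusted p values of 0.633, 0.642 and 0.972. These 3 genes were named after their values were seen.

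Of the 74 tested genes, 43 overlap no other row with counts, and 29 of these were called higher with a median of 0.32. The other 31 overlap at least 1 such row, and 17 of these were called higher with a median of 0.26. In 28 of the 75 genes an overlapping row lies on the opposite strand, and in 13 the overlapping rows held more counts than the gene itself. Pseudogene rows with the name of a member existed for 25 genes, and they held over 1% of the joint counts for 4 of them (Mrps36, Mrps18b, Mrps18c and Mrpl42).

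A further 3 large- or small-subunit genes lay outside the symbol pattern because the table gave no symbol or an older one, and they were identified from the deposited descriptions. Mrps21 had 54.6, 56.3 and 43.8 CPM with albiflorin, against 40.1, 32.0 and 39.3 CPM with RANKL, and it rose by 0.48 ± 0.10 (edgeR adjusted p = 0.0039). Its call was lost with each length trend removed, at -0.048 for mRNA length, -0.039 for gene length and 0.11 for coding length. Ict1, a peptidyl-tRNA hydrolase built into the large subunit and also called Mrpl58, had 30.7, 32.0 and 26.4 CPM with albiflorin, against 24.7, 22.05 and 22.2 CPM with RANKL, and it rose by 0.37 ± 0.097 (edgeR adjusted p = 0.0115), a call lost with the coding-length trend removed (edgeR adjusted p = 0.133) and without albiflorin replicate 1 or RANKL replicate 2 (0.0556 and 0.0515). Mrpl48 had a log2 fold change of 0.28 ± 0.10 with an edgeR adjusted p of 0.0616. In all 3 the groups were apart with albiflorin above, as in 20.8% of all tested genes.

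Mitochondrial ribosomal proteins whose genes carry other names gave a like count, with 4 of 6 called higher, 0 lower and a median of 0.37. Ndufab1, the mitochondrial acyl carrier protein, which also belongs to complex I, had 66.7, 70.2 and 61.3 CPM with albiflorin, against 43.5, 48.1 and 45.8 CPM with RANKL. Its log2 fold change was 0.53 ± 0.074 with an edgeR adjusted p of 0.000368, and the groups were well apart. Chchd1 and Aurkaip1, both small-subunit proteins, rose by 0.57 ± 0.092 and 0.59 ± 0.099 with edgeR adjusted p values of 0.000666 and 0.000893. Dap3, a GTP-binding small-subunit protein, rose by 0.21 ± 0.060 (edgeR adjusted p = 0.0211). Ndufab1 and Aurkaip1 were also called with each of the 3 length trends removed. Chchd1 was not called with the mRNA-length or gene-length trend removed (0.12 and 0.17, edgeR adjusted p = 0.378 and 0.179). Dap3 was not called with the coding-length trend removed (edgeR adjusted p = 0.0569) and was called in 2 of the 6 fits with 1 library left out, those without albiflorin replicate 3 and without RANKL replicate 1. Ptcd3 and Gadd45gip1 gave 0.035 ± 0.066 and 0.19 ± 0.13 and did not pass.

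The counts for the rest of the mitochondrial translation machinery follow, to be read against the 12.4% of all tested genes called higher and 11.4% lower. Among the 14 tested translation factors and mRNA-handling proteins, 1 (7.14%) rose and none fell, with a median of 0.055. That gene was Slirp, which stabilises mitochondrial mRNAs as a partner of Lrpprc, and it had 27.3, 31.7 and 21.6 CPM with albiflorin, against 15.9, 19.3 and 16.0 CPM with RANKL. Its log2 fold change was 0.65 ± 0.13 (edgeR adjusted p = 0.00229) with no overlap. It was called with the mRNA-length trend removed (0.62, edgeR adjusted p = 0.0066) but not with the gene-length or coding-length trend removed (0.28 and 0.33, edgeR adjusted p = 0.116 and 0.0635). Of the 20 mitochondrial aminoacyl-tRNA synthetases and related enzymes, 1 (5.0%) rose and 0 fell, with a median of 0.039. It was Yars2, the tyrosine enzyme, at 37.5 ± 3.96 CPM with albiflorin and 31.1 ± 1.27 CPM with RANKL (SD, n = 3 each), and it was called with none of the length trends removed and, among the fits with 1 library left out, in the one without albiflorin replicate 3. These proteins have longer coding sequences than the ribosomal ones, with medians of 1229 nt for the factors and 1616 nt for the synthetases.

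Ribosome assembly factors gave 6 of 22 called higher (27.3%), 0 lower and a median of 0.19. Eral1, which binds the small-subunit ribosomal RNA, rose by 0.38 ± 0.093 (edgeR adjusted p = 0.00846). Rbfa, another small-subunit factor, was at 76.0 ± 2.55 CPM with albiflorin and 63.7 ± 4.08 CPM with RANKL (SD, n = 3 each), and Mterf3 and Malsu1 rose by 0.32 ± 0.091 and 0.39 ± 0.13. None of the 22 was called with the mRNA-length or gene-length trend removed, and 3 were with the coding-length trend removed. Of the 4 genes just named, Eral1 alone was called in all 6 fits with 1 library left out. Rbfa was lost without albiflorin replicate 1 or RANKL replicate 2, Mterf3 without albiflorin replicate 2 or RANKL replicate 2, and Malsu1 in each such fit but the one without albiflorin replicate 3. In mitochondrial transcription and RNA processing, 3 of 17 (17.65%) rose and 0 fell, with a median of 0.15, a share near the 12.4% of all tested genes. They were Hsd17b10, a subunit of mitochondrial RNase P, at 0.40 ± 0.080, the exonuclease Rexo2 at 0.23 ± 0.062, and Tfam, which packages mitochondrial DNA, at 0.21 ± 0.065. With the mRNA-length trend removed only Tfam stayed called, Hsd17b10 stood at 0.068 and Rexo2 at -0.069, and with the gene-length trend removed Rexo2 stood at -0.072 and Hsd17b10 at 0.14, neither called. With the coding-length trend removed Hsd17b10 stayed called and Rexo2 and Tfam did not (0.088 and 0.080). Rexo2 was lost without albiflorin replicate 1 or RANKL replicate 2, and Tfam without albiflorin replicate 1, RANKL replicate 1 or RANKL replicate 2.

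The nuclear regulators that act on genes of this kind held calls in the other direction. Of 11 tested, 0 were called higher in edgeR's test and 3 lower, with a median of -0.060. Hcfc1, a transcriptional coregulator, had 188.8, 160.8 and 192.5 CPM with albiflorin, against 240.8, 252.9 and 247.3 CPM with RANKL. It fell by 0.45 on the log2 scale (SE 0.070, edgeR adjusted p = 0.000558), and its groups did not overlap. Pprc1 and Ppargc1b, coactivators of the PGC-1 family, had log2 fold changes of -0.23 ± 0.059 and -0.27 ± 0.092 (edgeR adjusted p = 0.0101 and 0.043). The mRNAs of Hcfc1, Pprc1 and Ppargc1b are long, at 8138, 5246 and 3656 nt. Of the 6653 protein-coding genes outside the family with mRNAs of 2500 nt or more, 19.9% were called lower and 3.4% higher. The call of Ppargc1b was kept, among fits with 1 library left out, in the one without albiflorin replicate 3. With the mRNA-length trend removed Hcfc1 alone was called lower (-0.21, edgeR adjusted p = 0.018) and 0 genes higher. With the gene-length trend removed Hcfc1 and Yy1 were called lower (-0.31 and -0.17, edgeR adjusted p = 0.00215 and 0.0347) and Gabpb1 higher (0.32, edgeR adjusted p = 0.00538). With the coding-length trend removed, 0 of the 11 were called in either direction, and Hcfc1 stood at -0.15 (edgeR adjusted p = 0.0597). Nrf1, Gabpa and Yy1, which bind the promoter motifs named above, had log2 fold changes of -0.055 ± 0.077, -0.13 ± 0.062 and -0.090 ± 0.058, and Gabpb1, the partner of Gabpa, had 0.18 ± 0.067, none of them called in the fit without a length correction. The highest point among the regulators was Myc, at 1.45, 1.04 and 0.773 CPM with albiflorin and 0, 0.701 and 0.675 CPM with RANKL, which are low counts, and it was not called.

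**Figure D4:**
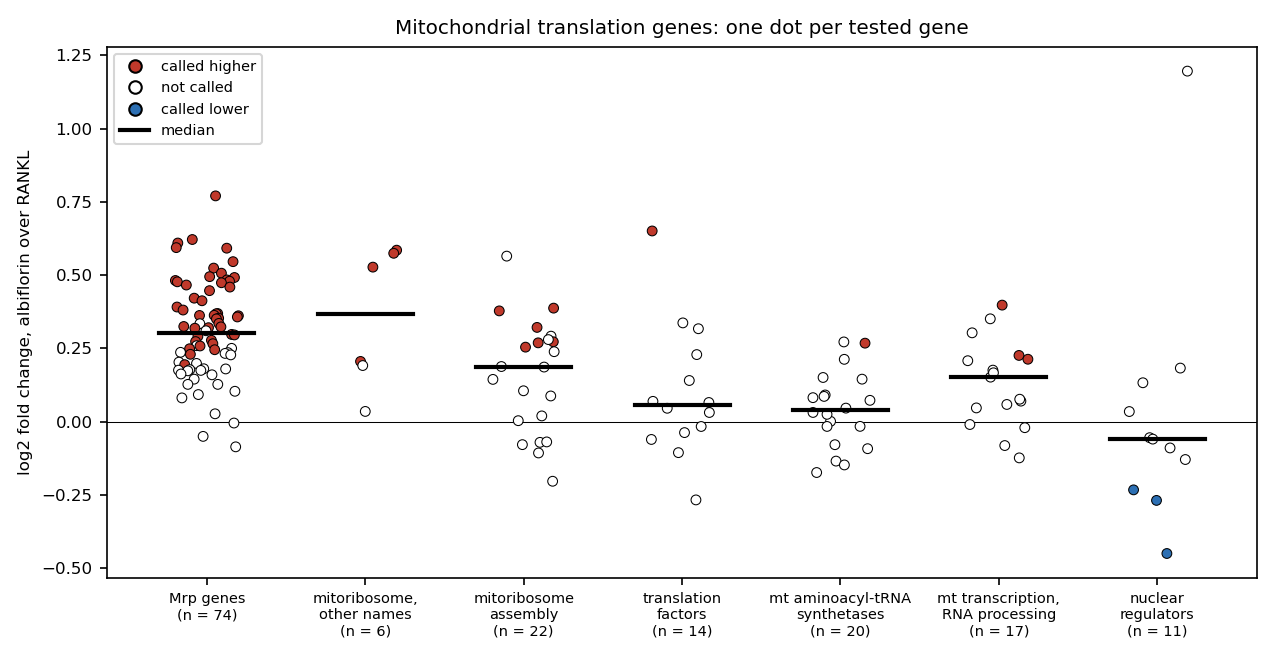
Log2 fold change, albiflorin over RANKL (vertical axis), of each tested gene in the family and in 6 lists of the mitochondrial translation pathway, with a bar at each list's median and horizontal scatter added for legibility. Medians run from 0.30 for the Mrp genes and 0.37 for ribosomal proteins of other names to 0.055 for translation factors, 0.039 for the aminoacyl-tRNA enzymes and -0.060 for nuclear regulators.

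Other families of small housekeeping proteins were also mostly called higher with albiflorin. For the 71 cytosolic ribosomal protein genes, 64 were called higher and 0 lower with a median of 0.51. For complex I subunit genes, 29 of 36 tested were called higher and 0 lower with a median of 0.42. Their coding lengths were shorter than those of the mitochondrial ribosomal genes, with medians of 456 and 434 nt against 582 nt. With the coding-length trend removed, 15 of 74 mitochondrial ribosomal genes, 54 of 71 cytosolic ribosomal genes and 13 of 36 complex I genes were called higher, with medians of 0.13, 0.26 and 0.17, and 1 complex I gene was called lower. With the mRNA-length trend removed the counts were 20, 24 and 4 called higher and 1, 0 and 2 lower, with medians of 0.054, 0.14 and 0.059. With the gene-length trend removed they were 25, 48 and 13 higher and 0, 0 and 1 lower, with medians of 0.15, 0.26 and 0.17. The differences between these families were not tested.

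Of the 46 genes, 25 were called in every fit that left out 1 library and 21 were lost in at least 1 such fit. The count fell to 28 without albiflorin replicate 1 and to 29 without RANKL replicate 2, and it was 52 without albiflorin replicate 3. Of the 25, 7 also passed with each of the 3 length trends removed, and these were Mrpl13, Mrpl15, Mrpl18, Mrpl35, Mrpl40, Mrpl45 and Mrps14. The shares of all tested genes that pass the same criteria were not counted, so these 2 counts have no background to be read against.

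**Figure D5:**
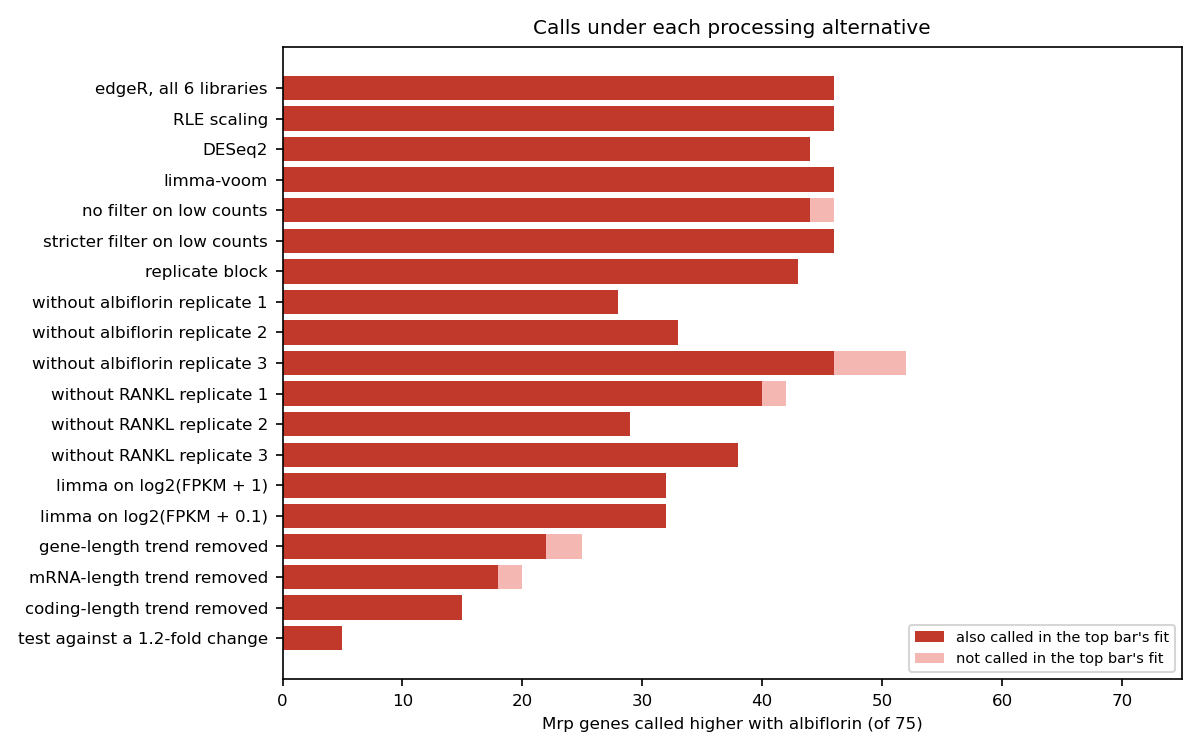
Number of mitochondrial ribosomal genes called higher with albiflorin (horizontal axis, out of 75) under the reported fit (top bar) and each processing alternative, with genes not called in the reported fit in light red. Counts are 43 to 46 under RLE scaling, DESeq2, limma-voom, both filter settings and the replicate block, 32 with limma on FPKM and 28 to 52 with 1 library left out, and they fall to 15 to 25 with a length trend removed and to 5 in a test against a 1.2-fold change.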

How the data were processed

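Both tables used here were deposited by the authors: whole-number counts of reads per gene in 6 libraries, and FPKM values that equal those counts per listed gene length and per a library total that differed from the column total by -0.95% to 1.65%. The submitters' processing notes name HISAT2 2.2.1, featureCounts 2.0.6-p3, fastp, CASAVA 1.8 and DESeq2 1.42.0 without saying what each did. Neither the genome build nor the strand setting of counting is stated there. Gene coordinates are those of the deposited table, whose identifiers carry the prefix Ensembl uses for C57BL/6NJ, and promoter coordinates are GRCm38.p6. Columns were assigned to libraries by the group and replicate in their names.

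In edgeR 4.0.16 (R 4.3.3), counts were filtered by filterByExpr, scaled by TMM and fitted with group as the sole term. The quasi-likelihood F-test was adjusted by Benjamini-Hochberg over all 13158 tested genes, and genes with an adjusted p under 0.05 are called. The SE is the size of the log2 fold change over the root of its F statistic. CPM uses TMM-scaled library sizes, except in the sums of cell type markers, which use total counts. The test was checked on counts simulated without a length trend, so that check does not cover the length trend in these data. Alternatives were RLE scaling, DESeq2 1.42.0, limma-voom (limma 3.58.1), no filter, a filter of 50 counts in 3 libraries, the replicate number as a block, each library left out, limma on FPKM in log2 with a pseudocount of 1 or 0.1, a test against a 1.2-fold change, and removal of a lowess trend (span 0.3, from genes whose log2 CPM averaged over 3) on listed gene length, mRNA length or coding length of the principal transcript in GENCODE M21.

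Genes given with full values were the 8 called members with the smallest p in each direction, the 4 highest and 4 lowest by mean FPKM, Mrps36 and the Mrps18 genes, and up to 4 called genes per direction in each pathway list. Other genes were named for their place in the ribosome or after their values were seen. Cytosolic ribosomal protein genes were those with symbols of Rpl or Rps followed only by digits or lower-case letters, without kinases and paralogue-like genes. The members and all lists were chosen with earlier results of these data known.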

Additional observations from a re-analysis of the deposited data

How the results depend on the processing

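The count of mitochondrial ribosomal genes called higher (46) was 46 under RLE scaling, limma-voom, no filter (44 of them shared) and the stricter filter on low counts, 44 under DESeq2, and 32 with limma on log2(FPKM + 1) or log2(FPKM + 0.1). With 1 library left out it ran from 28 to 52, and the counts over all tested genes ran from 984 to 1753 higher and from 914 to 1644 lower, against 1631 and 1496. Over all genes, limma on log2(FPKM + 1) called 901 lower and on log2(FPKM + 0.1) 909. The test against a 1.2-fold change called 5 members higher, 193 genes higher and 105 lower. Removing the gene-length trend gave 25 members, a median of 0.15 and 945 genes higher. Removing the mRNA-length trend gave 20 members higher and 1 lower, a median of 0.054, and 632 genes higher and 714 lower. Removing the coding-length trend gave 15 members, a median of 0.13 and 756 genes higher.

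Some of the members chosen by rule to be given with full values changed sign. With the gene-length trend removed these were Mrpl42 (-0.070), Mrpl4 (-0.018), Mrps18c (-0.10) and Mrps18b (-0.020). With the mRNA-length trend removed they were Mrpl42 (-0.12), Mrps18c (-0.27), Mrps18a (-0.19) and Mrps18b (-0.17), and with the coding-length trend removed Mrps18c (-0.086) and Mrps18a (-0.017). Further members outside that choice, not listed here, also changed sign with a length trend removed. An example is Mrpl36, called higher in the reported fit, at -0.050 (gene length), -0.055 (mRNA length) and -0.043 (coding length). With 1 library left out, Mrps18c ran from -0.45 (without albiflorin replicate 3) to 0.52 and was -0.065 without RANKL replicate 3, and it was not tested under the stricter filter. The cause of these changes was not tested, beyond what the removal of a trend does by construction.

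Replicate numbers are shared by the groups, but deviations of same-numbered libraries correlated at 0.022, -0.043 and -0.066, so the numbers were not taken as a pairing. With the replicate number as a block, 43 members were called higher and 0 lower, and over all genes 1358 higher and 1214 lower. Counts limit Mrps18c and Mrpl53, and 3 libraries per group limit the rest.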
